A study of Mus musculus with 10 samples.

Results

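The receptors described here take signals that set vascular tone: the angiotensin receptors Agtr1a and Agtr2, the endothelin receptors Ednra and Ednrb, the natriuretic peptide receptors Npr1, Npr2 and Npr3, and the prostacyclin receptor Ptgir. They were chosen by gene symbol, as 8 of the 28165 genes in the deposited table. The rule that lists them uses no measured value, but the choice was made with earlier results of these data known. Between genotypes, 7 of the 8 could be tested, among 15718 genes tested. Ptgir had too few counts in too many libraries to be tested.

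Bulk RNA sequencing was done on aortic smooth muscle cells of mouse embryos at embryonic day 15.5, with 5 Eln+/+ and 5 Eln-/- libraries. Eln encodes elastin, the core protein of elastic fibres, and the study asked how its loss changes gene expression in these cells. Cells of both genotypes carried a green fluorescent reporter driven by Acta2, the smooth muscle actin gene, and were untreated. They were sorted as positive for the reporter, negative for the endothelial protein CD31 and negative for the dead-cell dye DAPI, so every library is a selection of Acta2-reporter cells. The labels do not give the allele that inactivates Eln, the mouse strain, or whether replicates are separate embryos, so a p-value reflects the variation among these libraries alone, part of which may be technical. Each value below is 1 library, and n = 5 in each genotype unless stated.

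As background, AT1 and ETA receptors (Agtr1a, Ednra) act through Gq and G12/13 proteins, which raise calcium, activate RhoA and contract smooth muscle. The AT2 receptor (Agtr2) is known for high expression in fetal mesenchyme and for opposing AT1 signalling. Npr1 and Npr2 are membrane guanylyl cyclases that make cGMP, and Ptgir raises cAMP through Gs, and both messengers relax smooth muscle. Npr3 clears natriuretic peptides and so limits their action.

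Promoter sequences were available for 7 of the 8 receptors, from RefSeq on GRCm38.p6. Those of Agtr2, the most abundant receptor, and of Ednra and Npr1, the members whose log2 CPM were most alike across the 10 libraries, are shown as the 250 bases before the annotated start, 5′ to 3′ on the gene's strand. CPM are counts scaled to a common library size. The correlation of Ednra and Npr1 was 0.90 over the 10 libraries. It was 0.52 in the 7 libraries with more genes detected, where Ednra and Npr2 were the most alike (0.93). Capitals mark matches, on either strand, to a TATA motif (TATANA), a GC box (GGGCGG) or a CCAAT box (CCAAT).
Agtr2, chrX:21484374-21484623, plus strand: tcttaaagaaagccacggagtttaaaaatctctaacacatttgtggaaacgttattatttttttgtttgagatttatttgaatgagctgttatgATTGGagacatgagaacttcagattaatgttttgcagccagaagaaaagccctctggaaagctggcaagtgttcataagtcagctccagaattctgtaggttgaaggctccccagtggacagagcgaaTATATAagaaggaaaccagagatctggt
Ednra, chr8:77724453-77724702, minus strand: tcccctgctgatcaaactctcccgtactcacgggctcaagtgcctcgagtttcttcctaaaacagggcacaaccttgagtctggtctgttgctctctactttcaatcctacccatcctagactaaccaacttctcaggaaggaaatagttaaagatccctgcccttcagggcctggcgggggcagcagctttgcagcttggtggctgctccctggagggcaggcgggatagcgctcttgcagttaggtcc
Npr1, chr3:90465867-90466116, minus strand: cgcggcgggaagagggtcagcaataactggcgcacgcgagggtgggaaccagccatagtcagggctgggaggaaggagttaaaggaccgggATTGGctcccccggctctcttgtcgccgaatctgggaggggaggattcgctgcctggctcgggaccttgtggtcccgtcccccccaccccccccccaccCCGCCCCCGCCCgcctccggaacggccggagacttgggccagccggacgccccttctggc

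The 3 windows differed in base composition. The Agtr2 window was 38.4% G or C with 3 CG dinucleotides, and its GC content was at percentile 9.68 of 32841 promoter windows of the same length. The Npr1 window was 70.4% G or C with 21 CG dinucleotides, at percentile 91.7. The Ednra window was 54.8% G or C with 6 CG dinucleotides, near the medians of 52.4% and 6 over all windows.

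Agtr2 had a TATA match that begins 28 bases before the start, a match found somewhere in 22.6% of all windows. Agtr2 and Npr1 each had a CCAAT match (33.9% of all windows), 156 and 159 bases before the start. Npr1 also had 2 adjoining GC box matches, which begin 60 and 54 bases before the start (32.7% of all windows). Ednra had none of these 3 motifs. An E box (CANNTG, 66.2% of all windows) matched in Ednra and Agtr2 and not in Npr1. No match to the AP-1 motif (TGANTCA, 6.75% of all windows) or to the CArG box (1.47%) was found in these 3 windows. A match is a description of the letters only. GENCODE places the starts of Agtr2 and Ednra at bases 21484544 and 77724464, each inside its RefSeq window. The TATA match of Agtr2 thus lies past its GENCODE start.

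The targeted gene was checked first. Eln counts ran from 2409 to 105866 in Eln+/+ and from 0 to 36 in Eln-/-, and every library matched its label. Total counts were 26951733 to 63866416 per library. Eln+/+ replicate 1 and Eln-/- replicates 4 and 5 stood apart, with counts for 15089, 15595 and 15925 genes against 18157 to 22951 in the other 7, and results are given with and without these 3 libraries. All 10 smooth muscle markers were tested, and their summed level was 850 to 2157 CPM in Eln+/+ and 1163 to 3284 CPM in Eln-/-. Pecam1, which encodes CD31, was at 0 in Eln+/+ replicate 2 and Eln-/- replicate 2 and reached 7.70 CPM in Eln+/+ replicate 4. Fibroblast markers, all 10 of 10 tested, summed to 3635 to 8572 CPM in Eln+/+ and 1642 to 12496 CPM in Eln-/-, with overlap between the genotypes. Of the erythroid markers, 9 were in the table and 7 were tested. The sum of all 9 was 18883 CPM in Eln+/+ replicate 1 and 5161 CPM in Eln-/- replicate 4. It was 35.0 to 1359 CPM in the other 8 libraries. The 10 cardiomyocyte markers, of which 6 were tested, together summed to 4.32 to 920 CPM in Eln+/+ and 24.7 to 841 CPM in Eln-/-. The part of such cells in the receptor values was not tested. In bulk libraries, fewer cells of a type and less RNA per cell cannot be told apart.

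None of the 7 receptors tested passed the test between genotypes. With edgeR's quasi-likelihood test and Benjamini-Hochberg adjustment over all genes, 0 of 7 passed the threshold of 0.05, and 0% of all genes tested passed it. Eln itself did not pass, with a log2 fold change of -12.2 ± 1.64 (SE, edgeR adjusted p = 0.152). The test can thus miss a very large difference, and a receptor that did not pass cannot be called unchanged. At an unadjusted p under 0.05, 0 of 7 passed, beside 0.515% of all genes. The genotypes overlapped for all 8 receptors, whereas 0.305% of all genes tested had no overlap. DESeq2 and limma-voom also called 0 of the receptors they tested. The libraries did show a steep order of receptor levels, with Agtr2 first and Ednra next in each of the 10, and 0 counts of several receptors in single libraries.

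Between genes, levels were compared as CPM per kilobase of merged exons. Agtr2 averaged 308 ± 188 CPM per kilobase (SD, n = 10), and Ednra averaged 27.2 ± 20.6. Ednrb averaged 2.88 ± 3.44 CPM per kilobase and Agtr1a 2.31 ± 1.83. The natriuretic peptide receptors followed, with 1.07 ± 1.20 CPM per kilobase for Npr1, 0.891 ± 1.06 for Npr2 and 0.459 ± 0.418 for Npr3, and Ptgir was last with 0.352 ± 0.596. Agtr2 was above Ednra in 10 of 10 libraries, and Ednra above Ednrb in 10 of 10.

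Below these, neighbours in the order did not differ beyond their spread. Ednrb was above Agtr1a in 7 of 10 libraries, and Agtr1a above Npr1 in 6 and below it in 2. Npr1 was above Npr2 in 5 libraries and below it in 3, Npr2 was above Npr3 in 5 and below in 5, and Npr3 was above Ptgir in 7 of 10. Among 51 vasoactive receptors, the receptor partners Ramp1, Ramp2 and Ramp3 left out, Agtr2 ranked 1, the thrombin receptor F2r 2 and Ednra 3. Ednrb and Agtr1a ranked 12 and 13, Npr1, Npr2 and Npr3 ranked 22, 25 and 27, and Ptgir ranked 31.

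**Figure D1:**
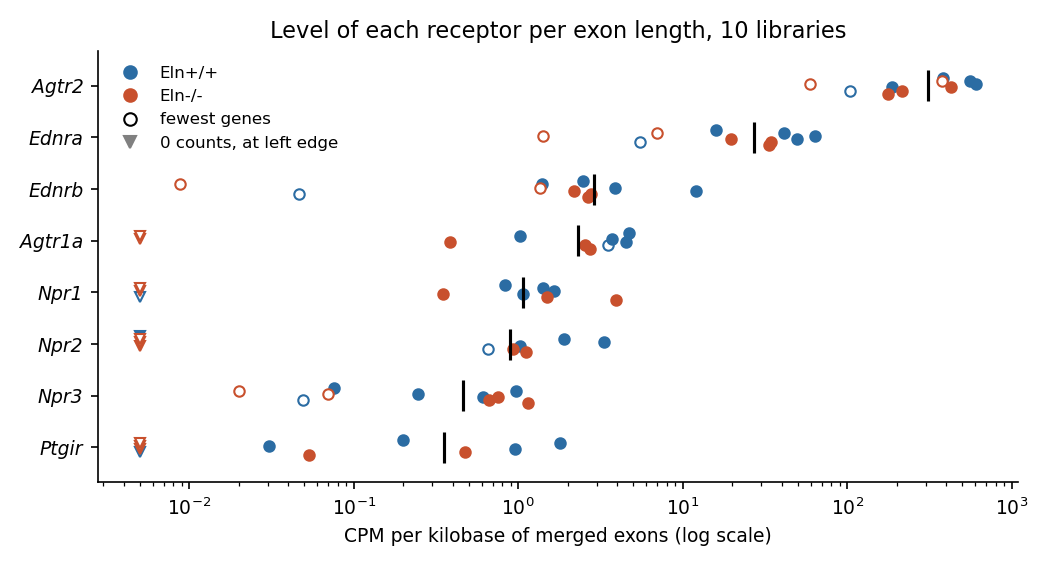
Level of each receptor in each library, as CPM per kilobase of merged exons on a log axis. Blue points are Eln+/+ and red points Eln-/- libraries, open symbols are the 3 libraries with the fewest genes, triangles at the left edge are libraries with 0 counts, and the black bar is the mean of 10 libraries (308 for Agtr2, 27.2 for Ednra). Within each of the 10 libraries Agtr2 is highest and Ednra next. Across libraries the points of Ednra overlap with those of Agtr2 and of lower receptors, and the points of the lower receptors overlap with each other.

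Agtr2 (chrX:21484544-21489164, plus strand, in GENCODE on GRCm38, the build also called mm10, as for each gene below) encodes the AT2 receptor. It was at 346, 622, 2018, 1848 and 1261 CPM in Eln+/+ replicates 1 to 5. The Eln-/- replicates 1 to 5 had 587, 719, 1417, 196 and 1244 CPM. The lowest values were in Eln-/- replicate 4 and Eln+/+ replicate 1, both among the libraries with the fewest genes, and the genotypes overlapped over most of their range. On average the libraries had 1219 ± 734 CPM (Eln+/+) and 833 ± 497 CPM (Eln-/-, SD). The log2 fold change of Eln-/- over Eln+/+ was -0.55 ± 0.66 (SE), with a 95% interval of -1.99 to 0.89 (edgeR adjusted p = 1.00). Without the 3 libraries it was -0.64. Agtr2 lay at percentile 89.3 to 99.4 of the per-kilobase levels of the genes detected in a library, so its high level was seen in each of the 10.

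Agtr1a (chr13:30336441-30382867, plus strand) encodes an AT1 receptor. It was at 9.79, 12.6, 10.3, 2.85 and 13.1 CPM in Eln+/+ replicates 1 to 5. The Eln-/- libraries had 7.56, 7.06, 1.07, 0 and 0 CPM. The 4 highest values were all Eln+/+, but Eln+/+ replicate 4 lay below Eln-/- replicates 1 and 2. Eln-/- replicates 4 and 5 had 0 counts, which allows up to 0.218 and 0.113 CPM (3 counts, counting error only). The means were 9.74 ± 4.11 CPM (Eln+/+) and 3.14 ± 3.84 CPM (Eln-/-, SD). Its log2 fold change was -1.63 ± 1.45 (SE), with a 95% interval of -4.80 to 1.54 (edgeR adjusted p = 1.00). Leaving out the 3 libraries with the fewest genes gave -0.86.

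Both libraries without an Agtr1a count were among those 3, while Eln+/+ replicate 1, the other of the 3, had 148 counts of it. Agtr1b, the near-identical paralog of Agtr1a, was at 4.23 ± 4.94 CPM (Eln+/+) and 4.64 ± 3.64 CPM (Eln-/-, SD), and how reads were shared between the paralogs is not given in the sources used here. The Agtr1a values are uncertain for that reason. Per kilobase, Agtr2 exceeded Agtr1a in 10 of 10 libraries. In the 8 libraries with Agtr1a counts the ratio of Agtr2 to Agtr1a had a median of 82.9 and ran from 29.6 in Eln+/+ replicate 1 to 1114 in Eln-/- replicate 3. Eln-/- replicates 4 and 5 have no such ratio, since they held 2701 and 33015 counts of Agtr2 and 0 of Agtr1a.

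Ednra (chr8:77663031-77724464, minus strand) encodes the ETA receptor, through which endothelin-1 contracts smooth muscle. It was at 29.9, 272, 347, 225 and 87.6 CPM in Eln+/+ replicates 1 to 5. In the Eln-/- replicates, in the same order, it was at 183, 189, 108, 7.77 and 38.3 CPM. The 3 lowest values came from the 3 libraries with the fewest genes, and Eln-/- replicates 1, 2 and 3 lay within the Eln+/+ range. The genotype means were 192 ± 131 CPM (Eln+/+) and 105 ± 82.4 CPM (Eln-/-, SD). As a log2 fold change this was -0.87 ± 0.82 (SE), with a 95% interval of -2.67 to 0.93 (edgeR adjusted p = 1.00).

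Without those 3 libraries Ednra averaged 233 ± 109 CPM in 4 Eln+/+ and 160 ± 45.4 CPM in 3 Eln-/- libraries (SD), and the log2 fold change was -0.51. Ednra is expressed at a level that every library could measure, with 107 to 23698 counts. Its exons overlap 91 bases of 4933431K23Rik on the other strand, and the strand setting of the counting is not given in the sources used here. The ratio of Agtr2 to Ednra per kilobase had a median of 16.3 and ran from 3.77 to 53.4.

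Ednrb (chr14:103814625-103844402, minus strand) encodes the ETB receptor, found on endothelium and neural crest derivatives as well as on smooth muscle. It was at 0.198, 51.4, 16.4, 5.99 and 10.6 CPM in Eln+/+ replicates 1 to 5. In Eln-/- it was at 11.4, 11.8, 9.31, 5.81 and 0.0377 CPM. Eln+/+ replicate 2 alone was high, and Eln+/+ replicate 1 and Eln-/- replicate 5 were near 0, with 3 counts and 1 count. On average the libraries had 16.9 ± 20.2 CPM (Eln+/+) and 7.67 ± 4.88 CPM (Eln-/-, SD). On the log2 scale the difference was -1.14 ± 1.26 (SE), with a 95% interval of -3.89 to 1.61 (edgeR adjusted p = 1.00). It was -0.11 without Eln+/+ replicate 2 and -0.95 without the 3 libraries with the fewest genes.

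Of the neural crest, glial and melanocyte markers, 9 were in the table and 4 were tested. The sum of all 9 was 18.6 to 202 CPM in Eln+/+ and 15.5 to 161 CPM in Eln-/-. The highest sums were in Eln+/+ replicate 1 and Eln-/- replicate 4, where Ednrb was at 0.198 and 5.81 CPM. Of the 10 endothelial markers, 4 were tested. The sum of all 10 was 15.1 to 96.8 CPM in Eln+/+ and 36.0 to 59.0 CPM in Eln-/-. The part of these cells in the Ednrb values was not tested. Per kilobase, the ratio of Ednra to Ednrb had a median of 16.5 in Eln+/+ and 12.5 in Eln-/-, with a range of 1.04 to 792 over the 10 libraries, and the extremes were the Eln-/- replicates 4 and 5.

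**Figure D2:**
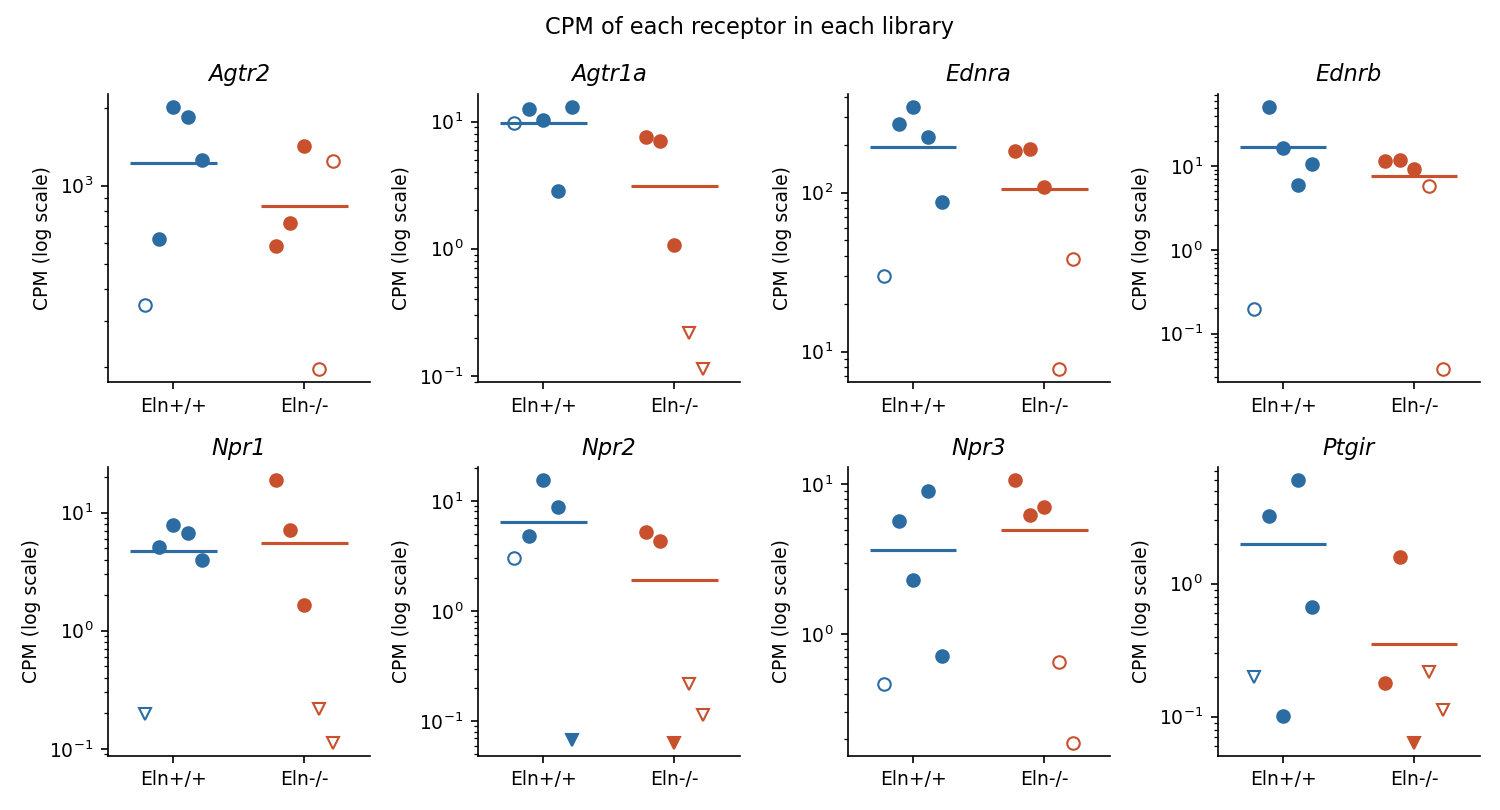
CPM of each receptor in each library, on log axes. Points are libraries of Eln+/+ (blue) and Eln-/- (red), bars are group means, open symbols are the 3 libraries with the fewest genes, and triangles mark 0 counts, drawn at the CPM of 3 counts. In each panel the genotypes overlap, and the open symbols are the lowest for Ednra, Ednrb and Npr3 and are at 0 for Npr1.

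Npr1 (chr3:90450591-90465866, minus strand) encodes guanylyl cyclase A, the receptor for atrial and B-type natriuretic peptides. It was at 0, 5.09, 7.83, 6.76 and 3.97 CPM in Eln+/+ replicates 1 to 5. The Eln-/- libraries had 18.9, 7.10, 1.66, 0 and 0 CPM. All 3 libraries with 0 counts were the ones with the fewest genes, where 0 allows up to 0.198, 0.218 and 0.113 CPM, and Eln-/- replicate 1 was the highest of all. The means were 4.73 ± 3.04 CPM (Eln+/+) and 5.52 ± 8.00 CPM (Eln-/-, SD). The log2 fold change was 0.22 ± 1.71 (SE), with a 95% interval of -3.53 to 3.98 (edgeR adjusted p = 1.00). It was -1.11 without Eln-/- replicate 1 and 0.67 without the 3 libraries, so its direction rested on single libraries. Exons of Npr1 overlap 559 bases of Gm16048.

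Npr2 (chr4:43631935-43651244, plus strand) encodes guanylyl cyclase B, the receptor for C-type natriuretic peptide. It was at 3.04, 4.77, 15.4, 8.82 and 0 CPM in Eln+/+ replicates 1 to 5. In the Eln-/- replicates, in the same order, it was at 5.23, 4.33, 0, 0 and 0 CPM. Zero counts occurred in 1 Eln+/+ and 3 Eln-/- libraries, and Eln-/- replicates 1 and 2 lay inside the Eln+/+ range. The genotype means were 6.41 ± 5.95 CPM (Eln+/+) and 1.91 ± 2.64 CPM (Eln-/-, SD). Its log2 fold change was -1.74 ± 1.97 (SE), the most negative of the 7, with the widest 95% interval, -6.05 to 2.57 (edgeR adjusted p = 1.00). Without the 3 libraries it was -1.14.

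The zeros of Npr2 were not confined to the 3 libraries with the fewest genes, and the part of the number of genes detected in them was not tested. Eln+/+ replicate 5 and Eln-/- replicate 3 had 18658 and 18918 genes detected, and their 0 counts allow up to 0.0668 and 0.0639 CPM. Eln+/+ replicate 1, with the fewest genes of all, had 46 counts of Npr2. Exons of Npr2 overlap 266 bases of Gm12473.

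Npr3 (chr15:11839896-11907287, minus strand) encodes the clearance receptor, which removes natriuretic peptides from outside the cell. It was at 0.463, 5.74, 2.29, 9.04 and 0.713 CPM in Eln+/+ replicates 1 to 5. In Eln-/- it was at 10.7, 6.22, 7.12, 0.654 and 0.188 CPM. The 3 libraries with the fewest genes were the lowest, with 5 to 9 counts, and Eln-/- replicate 1 was the highest. On average the libraries had 3.65 ± 3.68 CPM (Eln+/+) and 4.97 ± 4.48 CPM (Eln-/-, SD). As a log2 fold change this was 0.45 ± 1.19 (SE), with a 95% interval of -2.16 to 3.05 (edgeR adjusted p = 1.00). It was -0.045 without Eln-/- replicate 1 and 0.86 without the 3 libraries. Exons of Npr3 overlap 321 bases of Gm5144.

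The cyclase receptor for atrial peptide and the clearance receptor were also compared within libraries. Per kilobase, Npr1 was above Npr3 in 6 of the 7 libraries with counts of both and had 0 counts in the other 3. The ratio had a median of 2.24 and ran from 0.458 in Eln-/- replicate 3 to 10.9 in Eln+/+ replicate 5.

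Ptgir (chr7:16906490-16910905, plus strand) encodes the prostacyclin receptor. It was at 0, 3.20, 0.101, 6.00 and 0.668 CPM in Eln+/+ replicates 1 to 5. The Eln-/- libraries had 0.178, 1.59, 0, 0 and 0 CPM. Eln+/+ replicates 2 and 4 and Eln-/- replicate 2 held most of its counts, with 279, 379 and 104. The means were 1.99 ± 2.59 CPM (Eln+/+) and 0.353 ± 0.693 CPM (Eln-/-, SD), and the SD exceeded the mean in both. It was removed by the filter on low counts. A fit without that filter gave a log2 fold change of -2.47 (edgeR adjusted p = 1.00).

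**Figure D3:**
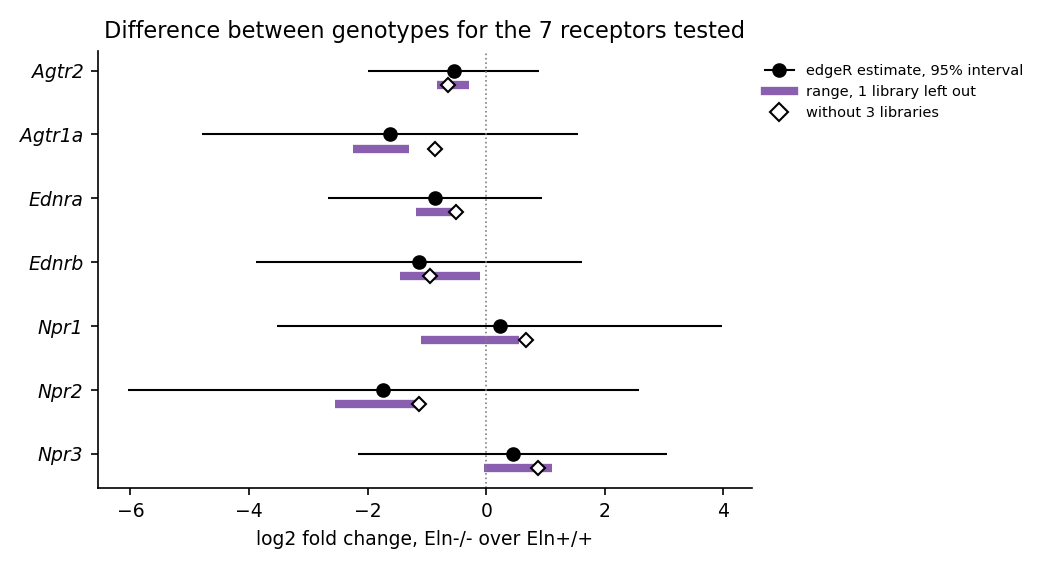
Log2 fold change of Eln-/- over Eln+/+ for the 7 receptors tested, with the edgeR estimate and its 95% interval (black), the range when each library in turn is left out (purple), and the value without the 3 libraries with the fewest genes (diamond). Every interval includes 0, from the narrowest for Agtr2 (-1.99 to 0.89) to the widest for Npr2 (-6.05 to 2.57).

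Of the 7 log2 fold changes, 5 were negative and 2 positive, with a median of -0.87, beside 0.021 over all genes tested, of which 51.5% were positive. All 7 intervals included 0, and those of Agtr1a, Npr1 and Npr2 were the widest. Ednra, Ednrb and Npr3 had their 3 lowest values, and Npr1 its zeros, in the 3 libraries with the fewest genes, of which 1 of 5 was Eln+/+ and 2 of 5 were Eln-/-. The part of that imbalance in the fold changes was not tested beyond the values without these libraries.

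The receptors' levels moved together to different degrees across the 10 libraries, which share the depth and detection differences given above. The correlation of log2 CPM was 0.90 between Ednra and Npr1 and 0.83 between Npr1 and Npr3. In the 7 libraries with more genes these were 0.52 and 0.26. Ednra and Agtr2 had a correlation of 0.68 over 10 libraries and 0.013 over 7. Other pairs rose from 10 to 7 libraries: Ednra and Npr2 from 0.66 to 0.93, Npr1 and Npr2 from 0.54 to 0.75, and Ednrb and Agtr1a from 0.50 to 0.56. The remaining pairs of tested receptors fell.

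Among the genes whose log2 CPM averaged 4 or more, those most like Agtr2 across the 10 libraries were Gpr180, Rala and Tsc22d3, with correlations of 0.98, 0.98 and 0.97. These were 0.94, 0.95 and 0.95 in the 7 libraries. For Ednra they were Adam10 (0.99), Ywhab (0.99) and Tpm3-rs7 (0.98), with 0.94, 0.89 and 0.86 in the 7 libraries. For Agtr1a the nearest were Ammecr1 (0.95), Septin6 (0.95) and Ino80e (0.95), and in the 7 libraries these fell to 0.36, 0.52 and 0.34.

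Ednrb was nearest to Ikzf5 (0.97), Dpp8 (0.97) and Zfp110 (0.96), with 0.77, 0.53 and 0.62 in the 7 libraries. Npr1 was nearest to Hs6st2 (0.99), Fam120b (0.99) and Bmp3 (0.99), with 0.87, 0.77 and 0.75. Npr2 was nearest to Srsf11 (0.87), Riok1 (0.86) and Usp9x (0.86), with 0.79, 0.88 and 0.81. Npr3 was nearest to Ltbp4 (0.96), Aars (0.95) and Rlim (0.94), with 0.89, 0.87 and 0.86. The 7 libraries are part of the 10 used to choose these genes, so they are no separate check. The receptors' own correlations with the number of genes detected ran from 0.24 (Agtr2) to 0.89 (Npr1) over 10 libraries. Over the 7 libraries they ran from -0.89 (Agtr2) to 0.63 (Npr3). The part of this in the likenesses was not tested.

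The genes that make or process the receptors' ligands were measured beside them. Of 18 such genes 13 were tested, 0 passed after adjustment (0% of all genes), and 5 fold changes were positive and 8 negative, with a median of -0.22 beside 0.021 over all genes. Ren1 (chr1:133350510-133360325, plus strand), which encodes renin, the protease that starts angiotensin formation, was the single one with an unadjusted p under 0.05 and with no overlap. Over all genes tested, 0.515% had such a p by edgeR and 0.305% had no overlap. It was at 34.1, 27.7, 56.6, 37.4 and 26.9 CPM in Eln+/+ replicates 1 to 5, against 7.58, 21.2, 16.2, 6.90 and 25.6 CPM in the Eln-/- replicates in the same order. Every Eln+/+ library lay above every Eln-/- library, with Eln-/- replicate 5 close to the lowest Eln+/+ value. This separation rests on the TMM scaling factors used for CPM, such as 0.562 for Eln+/+ replicate 1. Scaled by total count alone, Eln+/+ replicate 1 lay below Eln-/- replicates 2 and 5. Mean levels were 36.5 ± 12.02 and 15.5 ± 8.24 CPM (SD).

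The log2 fold change of Ren1 was -1.24 ± 0.53 (SE), with an unadjusted p of 0.0376 and an adjusted p of 1.00 by edgeR, so it did not pass. It was -1.28 without the 3 libraries with the fewest genes. Some mouse strains carry a further renin gene, and the strain is not in the labels. Angiotensinogen (Agt), the substrate of renin, was at 2.87 ± 4.12 CPM (Eln+/+) and 1.74 ± 3.00 CPM (Eln-/-, SD).

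For the endothelin and natriuretic receptors, ligand mRNAs were measured at the following levels. Edn1, which encodes endothelin-1, was at 2.23 ± 1.69 CPM (Eln+/+) and 5.13 ± 4.36 CPM (Eln-/-, SD), and Edn3 at 12.03 ± 10.9 and 7.52 ± 6.18 CPM. Nppc, which encodes C-type natriuretic peptide, was at 1.88 ± 1.08 and 1.17 ± 1.23 CPM, and Nppa and Nppb did not pass the filter. By contrast Ptgis, the prostacyclin synthase, was at 63.5 ± 37.9 and 70.7 ± 41.6 CPM. It averaged 26.1 CPM per kilobase, while the prostacyclin receptor Ptgir averaged 0.352, the lowest of the 8 receptors. Ptgis was near 0 in Eln-/- replicate 4, with 3 counts, and its exons overlap 156 bases of 1110018N20Rik. Ptgs1, which feeds prostanoid synthesis, was at 19.3 ± 6.35 and 9.99 ± 5.92 CPM, and Ptgs2 at 0.854 ± 1.04 and 17.5 ± 38.3 CPM, nearly all of the latter from Eln-/- replicate 1 (85.9 CPM).

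**Figure D4:**
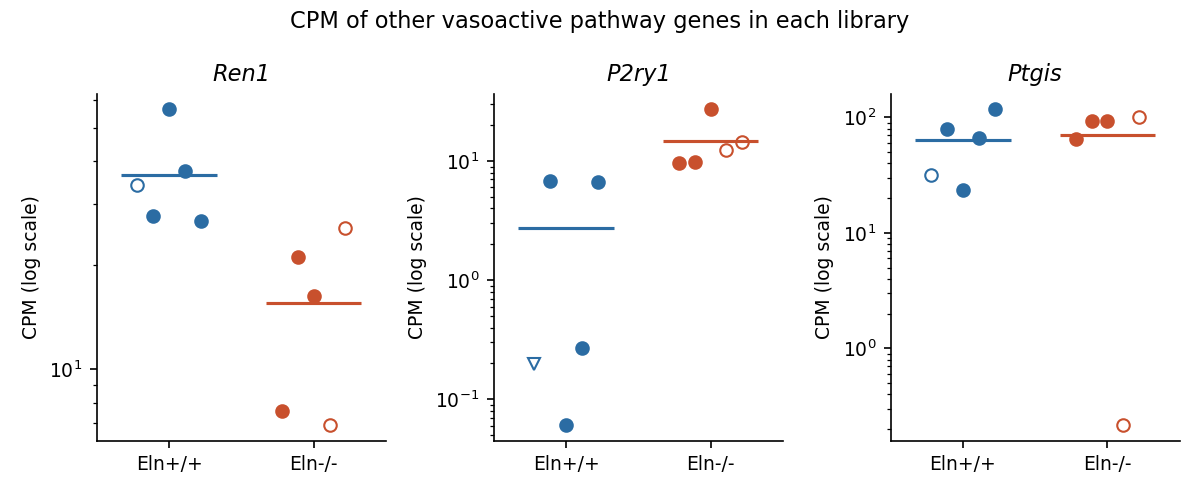
CPM of Ren1, P2ry1 and Ptgis in each library, on log axes, for Eln+/+ (blue) and Eln-/- (red), with bars at the group means, open symbols for the 3 libraries with the fewest genes and a triangle for 0 counts, drawn at the CPM of 3 counts. With the TMM scaling used, Ren1 and P2ry1 have no overlap between genotypes (means 36.5 and 15.5 CPM, and 2.76 and 14.7 CPM), and Ptgis does overlap. Scaled by total count alone, Ren1 and P2ry1 overlap too.

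Of 47 other vasoactive receptors and receptor partners, 46 were in the table and 27 were tested, 0 passed after adjustment, and 12 fold changes were positive and 15 negative, with a median of -0.055. The 4 most abundant by average log2 CPM included S1pr2, a sphingosine 1-phosphate receptor, at 116 ± 61.5 CPM (Eln+/+) and 112 ± 70.6 CPM (Eln-/-, SD), and the lysophosphatidic acid receptor Lpar1, at 114 ± 79.6 and 67.8 ± 45.2 CPM. Of the other two, F2r was at 99.3 ± 62.9 and 99.7 ± 91.2 CPM, and Ramp1, a partner of the calcitonin receptor-like receptor, at 69.5 ± 101 and 109 ± 105 CPM. P2ry1, an ADP receptor, was at 0, 6.79, 0.0609, 0.269 and 6.68 CPM in Eln+/+ replicates 1 to 5, against 9.58, 9.91, 27.2, 12.4 and 14.5 CPM in the Eln-/- replicates in the same order. With the TMM scaling used, every Eln-/- library lay above every Eln+/+ library, and 0.305% of all genes tested had no overlap. Scaled by total count alone, Eln-/- replicate 4 lay below Eln+/+ replicates 2 and 5. The log2 fold change of P2ry1, 2.41 ± 1.38 (SE), did not pass (edgeR adjusted p = 1.00). Adra2b, an alpha-2 adrenergic receptor, was at 2.95 ± 2.79 and 0.255 ± 0.411 CPM.

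Downstream of the contractile receptors, 28 of 31 genes of Gq, G12/13 and calcium signalling were tested and 0 passed, with 17 positive and 11 negative fold changes and a median of 0.26. Rhoa was at 668 ± 147 CPM (Eln+/+) and 686 ± 241 CPM (Eln-/-, SD), and Gna11, a Gq family subunit, at 105 ± 53.3 and 83.1 ± 65.7 CPM. Rgs5 and Rgs4, which shut off Gq and Gi signals, were at 692 ± 351 and 1302 ± 800 CPM and at 106 ± 61.0 and 129 ± 72.4 CPM. Arrb1, which encodes an arrestin, was at 2.99 ± 2.35 and 0.969 ± 1.60 CPM.

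Downstream of the relaxing receptors, 22 of 28 genes of cGMP and cAMP signalling were tested and 0 passed, with 10 positive and 12 negative fold changes and a median of -0.030. The subunits of soluble guanylyl cyclase, which makes cGMP in response to nitric oxide, were at 78.2 ± 66.3 and 71.6 ± 63.1 CPM for Gucy1a1 and 69.7 ± 47.1 and 79.3 ± 31.6 CPM for Gucy1b1 (Eln+/+ first, SD). Gnas, which encodes the Gs subunit used by Ptgir, was at 619 ± 407 and 451 ± 441 CPM, and Prkar1a, a regulatory subunit of the cAMP-dependent kinase, at 546 ± 221 and 477 ± 217 CPM. Vasp, a substrate of the cGMP- and cAMP-dependent kinases, was at 29.6 ± 17.2 and 62.7 ± 20.1 CPM, with an unadjusted p of 0.0598 by edgeR. Prkaca, the catalytic subunit of the cAMP-dependent kinase, was at 26.0 ± 11.6 and 42.9 ± 19.6 CPM.

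**Figure D5:**
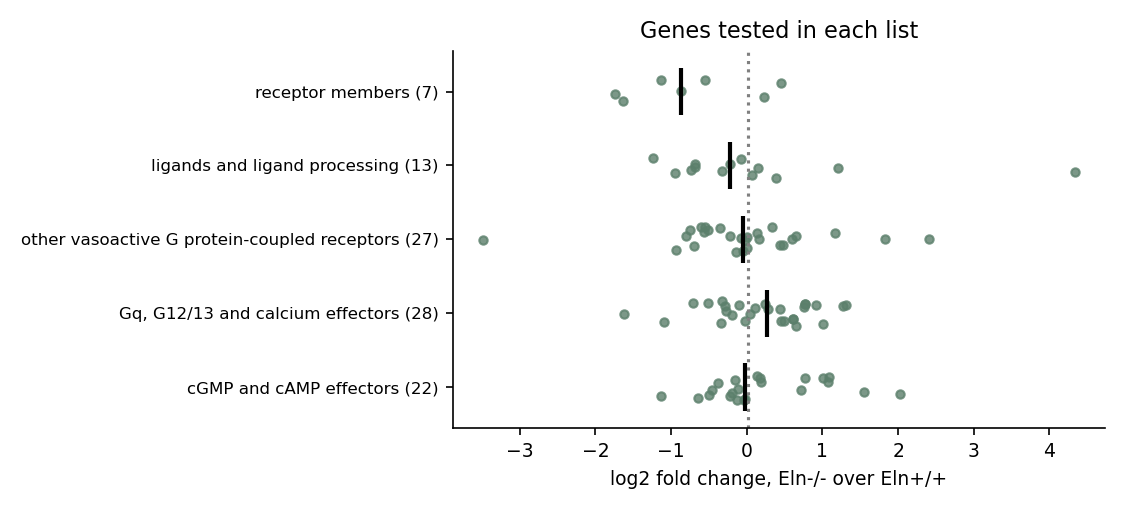
Log2 fold change of Eln-/- over Eln+/+ for each gene tested in each list, with the number tested in brackets, the list median as a black bar and the median of all genes tested (0.021) as a dotted line. The points of each list lie on both sides of 0, and the median of the receptors described here (-0.87) is the lowest of the 5.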

How the data were processed

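The authors deposited 1 table of estimated counts per gene and library, not scaled for library size. Per the submitters' processing notes, STAR, DESeq2 and the build mm10 were used. Their versions, and the program, gene annotation and strandedness used for counting, are not given in the sources used. In each library 23.5% to 48.8% of the values were not whole (tolerance 1e-06), and all were rounded. Genes passing edgeR's filterByExpr (15718) were scaled with TMM factors and compared by glmQLFit and glmQLFTest, two-sided, with genotype as the only term, Benjamini-Hochberg adjustment over all genes and a threshold of 0.05. The SE is the fold change divided by the square root of F, and the 95% interval uses its degrees of freedom. CPM used the TMM factors, and log2 CPM a prior count of 2. Per-kilobase levels used merged exons of GENCODE mouse release M21 on GRCm38 (mm10), whose gene spans matched the table's for 27876 of 28165 genes once the table's end, 1 base further, was allowed for. Limits for 0 counts cover counting error only, whereas the 95% intervals rest on the spread between libraries.

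The receptors and gene lists were chosen with earlier results of these data known. Genes were named by rule: all receptors, Eln, of each pathway list the 4 most abundant and the 2 with the smallest p, and the 3 genes most correlated with each receptor. Agt, Edn1, Edn3, Nppc, Agtr1b and Pecam1 were named as the receptors' ligands, paralog or sort marker. The rule also took 1 gene that is not reported here. Ptger2, Foxd3 and Ahsp were not analysed here. No libraries were identical, and the highest correlation within a genotype was 0.89. Alternatives were other scaling, filters, DESeq2, limma-voom, a replicate block, and leaving out each library or the 3 with the fewest genes. The software was DESeq2 1.42.0, edgeR 4.0.16 and limma 3.58.1 in R 4.3.3.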

Additional observations from a re-analysis of the deposited data

Results flagged for a closer look

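The Ptgir level of Eln-/- replicate 2, 1.59 CPM, stood apart from its group, in which the other 4 libraries had 0 to 0.178 CPM. Its gap to the nearest library was 0.888 of the group's whole range, past Dixon's 95% critical value for 5 libraries. Each receptor was examined in each genotype, 16 groups in all. Chance alone passes that value in about 5% of groups only if the values are normally distributed. This group had 3 libraries at 0 counts, so that rate cannot be taken to hold for it.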

How the results depend on the processing

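With edgeR, 0 genes passed under other scaling, other filters, no rounding or the replicate block, and 0 to 1 passed with a library left out (1 without Eln-/- replicate 1). DESeq2 called 28 genes over all genes and 6 on those edgeR kept, limma-voom 2, and with quality weights 7. The receptors called were 0 under every alternative run. Ednra, Ednrb, Agtr1a, Agtr2, Npr2, Ren1 and P2ry1 kept their direction under all 22 alternatives, though not their size: Agtr1a (-1.63) ran from -3.92 with limma-voom to -0.60 with quality weights, Npr2 (-1.74) from -3.70 with the replicate block to -1.11, and P2ry1 (2.41) from 2.06 to 5.05 with the replicate block. Ednrb (-1.14) ran from -1.45 to -0.11.

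Npr1 reversed to -1.68 with limma-voom, -0.31 with quality weights and -2.54 with the replicate block, and ran from -1.11 to 0.55 with a library left out. Npr3 then ran from -0.045 to 1.11. The cause was not tested.

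The receptors' median of -0.87 was -1.34 with limma-voom, -0.48 with quality weights, -1.13 with the replicate block and -1.29 to -0.71 with a library left out. The ligand median of -0.22 was -0.58 with limma-voom, -0.90 with the replicate block, 0.11 without the 3 libraries with the fewest genes and -0.64 to -0.0073 with a library left out. The median of other receptors (-0.055) was -0.27 with limma-voom, -0.39 with the replicate block, 0.17 without the 3 libraries and -0.28 to 0.083 with a library left out. The median of Gq, G12/13 and calcium genes (0.26) was 0.072 with DESeq2 on all genes, 0.060 with limma-voom, -0.057 with the replicate block, 0.55 without the 3 libraries and -0.31 to 0.32 with a library left out. The median of cGMP and cAMP genes (-0.030) was -0.55 with the replicate block and -0.56 to 0.41 with a library left out.

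Other scaling moved the median of all genes by at most 0.071, and leaving out Eln-/- replicate 1 moved it by -0.15. Same-numbered libraries of the 2 genotypes had correlated deviations of -0.56, 0.51, 0.12, -0.38 and 0.092 for numbers 1 to 5, and 1 of 5 numbers, number 3, matched best with its own, so the numbers were not read as pairs. Depth sets a limit at 3 counts of 0.0344 to 0.218 CPM per library.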
